A study of Mus musculus with 8 samples.

Results

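The mRNAs of 8 transcription factor genes were followed in mouse muscle with and without knockdown of *Uba1*, which encodes the E1 enzyme that activates ubiquitin. They are the Myc family genes *Myc*, *Mycn* and *Mycl*, the gene of their partner *Max*, and the C/EBP genes *Cebpa*, *Cebpb*, *Cebpd* and *Cebpg*. All 8 were found by symbol among the 41709 genes of the deposited table. *Myc* was chosen by its lower mRNA level with *Uba1* siRNAs in these same muscles, so its difference is given as a description without a test. The other 7 genes were taken because they belong to the same families or bind Myc proteins.

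RNA was sequenced from 8 tibialis anterior (TA) muscles, fast-twitch muscles of the lower hindlimb, of 3-month-old C57BL/6J males. In each of 4 mice, 1 TA muscle was electroporated with a pool of siRNAs (SMARTpool) for *Uba1* and the contralateral muscle with a pool of non-targeting (NT) siRNAs. All 8 muscles, controls included, were pretreated with hyaluronidase, injected, electroporated and collected on day 7. The same replicate number therefore marks the 2 legs of 1 mouse. All muscles with NT siRNAs were right legs and all with *Uba1* siRNAs were left legs, so leg and siRNA cannot be told apart. The groups follow the sample titles, which name UBA1 for all 4 knockdown muscles, whereas the treatment tags of replicates 2, 3 and 4 name UBA2, UBA3 and UBA4. *Uba1* mRNA was at 59.0 to 63.6 TPM, an abundance scaled for transcript length and library total, with NT siRNAs and at 6.77 to 23.1 TPM with *Uba1* siRNAs (log2FC -1.98, standard error 0.290).

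Myc proteins are basic helix-loop-helix leucine zipper factors that bind DNA as heterodimers with Max, mostly at the E-box CACGTG. They raise transcription of genes for ribosome assembly, nucleotide synthesis and growth, and Max also pairs with the Mxd proteins and Mnt, which repress such genes. C/EBP factors are basic leucine zipper proteins that form homodimers and heterodimers with each other. C/EBPβ and C/EBPδ act in the acute-phase response to cytokines such as IL-6 and early in adipogenesis, C/EBPα acts in adipocytes, hepatocytes and granulocyte precursors, and C/EBPγ lacks a strong activation domain of its own. Myc protein is short-lived and is degraded through ubiquitin. RNA-seq reads only the mRNA side of this network, and in whole muscle fewer cells of a type and less RNA per cell cannot be told apart.

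Muscle transcripts dominated: 10 fast muscle genes such as *Acta1* and *Atp2a1* summed to 127675 to 179452 TPM, and the summed markers of macrophages (136.5 to 485.6 TPM), fibro-adipogenic progenitors (513 to 1283 TPM), endothelial cells (112 to 171 TPM), satellite cells and myoblasts (36.3 to 113 TPM), adipocytes (7.79 to 76.9 TPM) and neutrophils (17.5 to 67.5 TPM) were far lower. Differences are given as the log2FC of log2(TPM + 1), *Uba1* minus NT siRNAs, tested by limma over the 11530 genes that reached 1 TPM in 4 or more muscles. Because of the added 1, changes of genes at low TPM come out too small. Of all genes tested, 81.8% were higher with *Uba1* siRNAs and the median log2FC was 0.11. With median-ratio scaling of the TPM, which sets the typical gene equal between muscles, 51.4% were higher and the median was 0.0036. Changes below are therefore read against this shift of 0.10. An adjusted p below 0.05 (Benjamini-Hochberg over all genes) was reached by 3 genes, or 0.026% of those tested, and by 57 genes, or 0.494%, when the mouse was added as a replicate block. Of the 6 members tested, none of the 5 other than *Myc* was among them in either fit.

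The members differed widely in level. With NT siRNAs, *Cebpb* was highest at 22.6 ± 2.66 TPM (SD, n = 4 muscles) and *Cebpg* followed at 17.2 ± 0.631 TPM. *Myc*, *Max* and *Cebpd* lay close together, with means of 11.0, 10.3 and 9.09 TPM and ranges in which *Myc* overlapped *Max* and *Max* overlapped *Cebpd*. *Cebpa* was below them in all 4 muscles at 3.34 ± 1.20 TPM, and *Mycl* and *Mycn* stood at 0.368 and 0.315 TPM with overlapping ranges. With *Uba1* siRNAs the order was *Cebpb*, *Cebpg*, *Max*, *Cebpd*, *Myc*, *Cebpa*, *Mycn* and *Mycl*. There *Cebpb* was no longer above *Cebpg* in all 4 muscles, and *Myc* had gone from the third place to the fifth, where its range overlapped that of *Cebpa*.

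**Figure D1:**
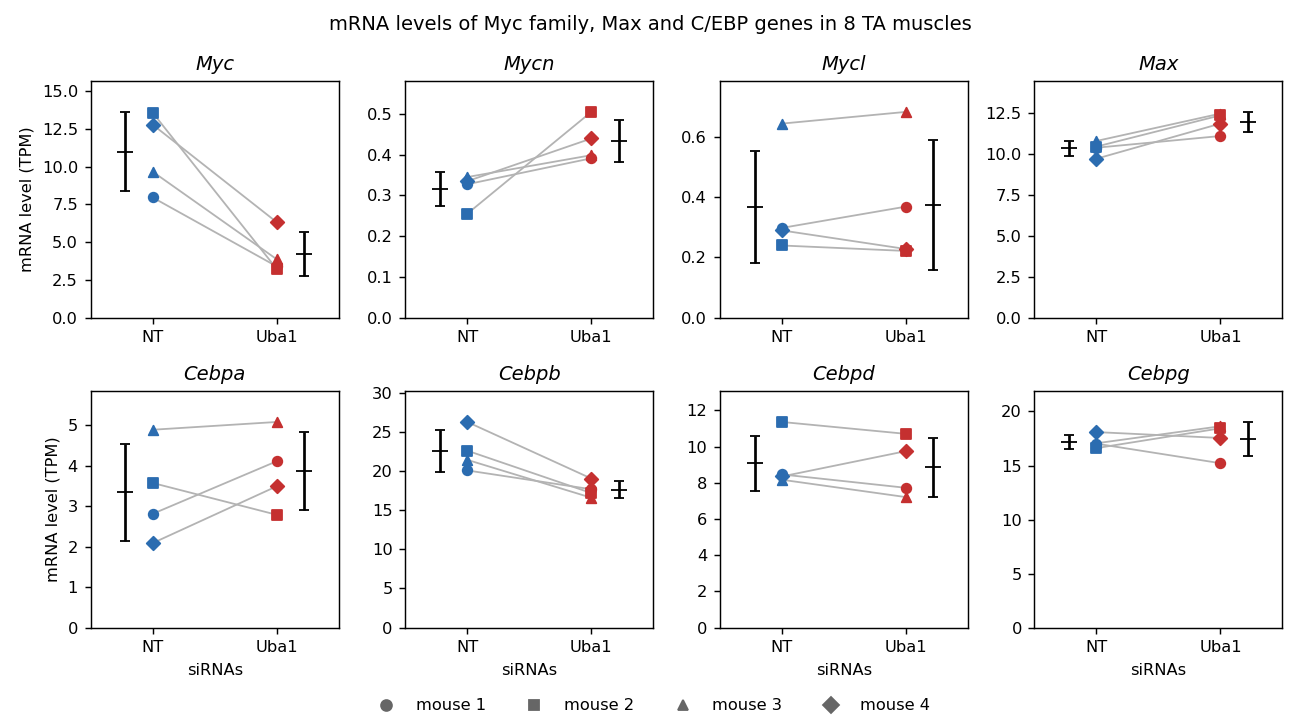
mRNA level in TPM (y axes, each from 0) of the 8 genes in muscles with NT siRNAs (blue) and *Uba1* siRNAs (red). Marker shapes are mice and grey lines join the 2 legs of a mouse, while black bars show mean ± SD (n = 4 muscles). *Myc*, chosen by its fall, and *Cebpb* are lower in 4 of 4 mice and *Max* and *Mycn* higher in 4 of 4, without overlap between groups. Of all genes tested, 1.01% were lower and 10.6% higher without overlap, or 4.05% and 2.88% after median-ratio scaling.

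*Myc* lies on chromosome 15 of GRCm39 from 61857227 to 61862223 on the plus strand. Control muscles held 7.96, 13.6, 9.67 and 12.8 TPM of its mRNA in mice 1 to 4, and with *Uba1* siRNAs it was at 3.39, 3.22, 3.87 and 6.32 TPM in the same order. Every knockdown muscle was below every control muscle, the closest being the knockdown muscle of mouse 4 and the control muscle of mouse 1. The mean was 11.0 ± 2.63 TPM against 4.20 ± 1.44 TPM (SD, n = 4 each), or 2.62-fold, and the log2FC was -1.21 (standard error 0.205). Within mice, the knockdown leg held 42.6%, 23.8%, 40.0% and 49.5% of the *Myc* level of the control leg. Reads (or read pairs) were estimated for each member at the implied transcript length, 2717 bases for *Myc*, at which its TPM are whole multiples of what 1 read is worth in all 8 muscles. This gave 341 to 571 reads for *Myc* in control muscles and 136 to 261 in knockdown muscles. The counting error of such numbers alone, 4.18% to 8.57%, is well under the spread between muscles. Across all genes tested, 117 were lower without overlap between groups, or 1.01% (4.05% after median-ratio scaling), and 96, or 0.833%, met P under 0.05 with a log2FC below -0.58, the 50% criterion of the study. *Myc* is in both sets by its choice, and nothing is read from that. An annotated long non-coding RNA, Gm62594, overlaps 101 exonic bases of *Myc* on the other strand, and the library kit does not mark strand.

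The paralogs *Mycn* and *Mycl*, which pair with Max in the same way and act mainly in developing and neural tissue, were under the filter of 1 TPM in every muscle. *Mycn* (chromosome 12, 12986076 to 12992915, minus strand) was at 0.327, 0.255, 0.345 and 0.335 TPM with NT siRNAs and at 0.391, 0.505, 0.398 and 0.439 TPM with *Uba1* siRNAs. All 4 knockdown muscles were above all controls, and the mean was 1.37-fold higher. The exact permutation test (two-sided) gave p = 0.0286, the smallest that 4 muscles against 4 allow, on an estimated 13 to 17 reads per control muscle and 19 to 26 per knockdown muscle (implied length 3295 bases). These counts carry an error of 19.6% to 27.7% each, and a non-coding RNA on the other strand, Gm59473, overlaps 748 exonic bases of *Mycn*. With median-ratio scaling the p was 0.0571, and the pairs of legs alone cannot give a p under 0.125. Of all genes tested, 1225, or 10.6%, were higher without overlap between groups, and 2.88% after median-ratio scaling.

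*Mycl* (chromosome 4, 122889408 to 122896282, plus strand) was at 0.298, 0.240, 0.645 and 0.290 TPM with NT siRNAs and at 0.369, 0.222, 0.684 and 0.228 TPM with *Uba1* siRNAs. The groups overlapped fully, and both legs of mouse 3 held the highest levels, with 39 and 40 reads against 14 to 22 in the other muscles. The exact permutation p was 0.971. Summed TPM of the 10 macrophage markers was also highest in both legs of mouse 3 (465 and 486 TPM against 137 to 355 TPM elsewhere). The 8 fibro-adipogenic progenitor markers were likewise highest of their group in mouse 3, summing to 1035 TPM with NT and 1283 TPM with *Uba1* siRNAs. The part of these cells in the *Mycl* level was not tested.

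*Max*, the shared partner, lies on chromosome 12 of GRCm39 from 76984043 to 77009009 on the minus strand. It was at 10.4, 10.4, 10.8 and 9.69 TPM with NT siRNAs and at 11.1, 12.3, 12.4 and 11.8 TPM with *Uba1* siRNAs. All knockdown muscles were above all control muscles by this narrow margin. Of all genes tested, 10.6% were higher without overlap, or 2.88% after median-ratio scaling. The log2FC was 0.19 (standard error 0.0645, 95% interval 0.046 to 0.337), which did not pass over all genes (limma, unadjusted P = 0.0154, adjusted p = 0.197). An unadjusted P under 0.05 in the higher direction was found for 16.0% of all genes and in the lower direction for 1.98%. With median-ratio scaling the log2FC of *Max* was 0.08 (unadjusted P = 0.301, limma). *Myc* mRNA per *Max* mRNA went from 0.768 to 1.32 in control muscles to 0.261 to 0.534 in knockdown muscles. In 2 of the 4 control muscles *Myc* was above *Max*, and in every knockdown muscle it was below. This ratio uses the level that chose *Myc* and carries no test.

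The promoter of *Max* is shown because it holds the letters of the E-box that Max itself binds. It comes from RefSeq, build GRCm38.p6, chr12:76962199-76962498 on the minus strand, from position -250 to 50 relative to the start of the gene, with the E-box in capitals.
Max promoter: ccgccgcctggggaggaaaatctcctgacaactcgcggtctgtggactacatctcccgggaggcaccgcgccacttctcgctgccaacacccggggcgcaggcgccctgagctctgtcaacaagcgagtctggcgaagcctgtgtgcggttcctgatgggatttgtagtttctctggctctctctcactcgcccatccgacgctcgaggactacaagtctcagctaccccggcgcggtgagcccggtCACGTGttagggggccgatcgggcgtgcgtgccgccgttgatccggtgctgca
The E-box begins 3 bases before the start. CACGTG, which reads the same on both strands, was present in 7.15% of the 32851 promoters of this length. It was in the promoters of 4 of the 10 genes of the Max network, *Mxd4*, *Mnt*, *Mlx* and *Mlxipl*. Among the 6 members with a promoter in the RefSeq table, *Max* alone held it. The match of letters is a description and not a measured binding site.

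The other proteins that share Max or its relative Mlx were measured alongside. Of 10 genes, 9 passed the filter, with 6 higher and 3 lower and a median log2FC of 0.14 against 0.11 over all genes. No gene of the 9 met P under 0.05 with a log2FC beyond 0.58 in either direction, a criterion that 0.442% of all genes met in the higher and 0.833% in the lower direction. *Mxd4*, which encodes a repressor that competes with Myc for Max, was at 10.5 to 12.8 TPM with NT siRNAs and at 12.3 to 16.0 TPM with *Uba1* siRNAs, higher in 4 of 4 mice (log2FC 0.26, standard error 0.0912, adjusted p = 0.208, limma). *Mlx*, the partner of the glucose-responsive factors MondoA (*Mlxip*) and ChREBP (*Mlxipl*), was at 8.09 to 9.26 and 9.18 to 11.5 TPM (log2FC 0.24, adjusted p = 0.190, limma). *Mlxip* and *Mlxipl* themselves had log2FC of -0.04 and 0.14.

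*Mnt*, a repressor that opposes Myc at E-boxes, was at 6.86, 10.6, 7.70 and 13.9 TPM with NT siRNAs and at 5.51, 6.11, 6.93 and 9.69 TPM with *Uba1* siRNAs. It was lower in 4 of 4 mice but the groups overlapped, and the difference did not pass (log2FC -0.40, standard error 0.217, adjusted p = 0.343, limma). As for *Myc*, the 2 highest control muscles were those of mice 2 and 4, and the highest knockdown muscle was that of mouse 4. The remaining genes were the Max-binding repressors *Mxd1* (log2FC 0.14) and *Mxi1* (-0.14), *Mga*, which also binds Max (0.24), and *Zbtb17*, whose product Miz1 carries Myc to repressed genes (0.10). *Mxd3* was at 0.338 TPM or less.

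**Figure D2:**
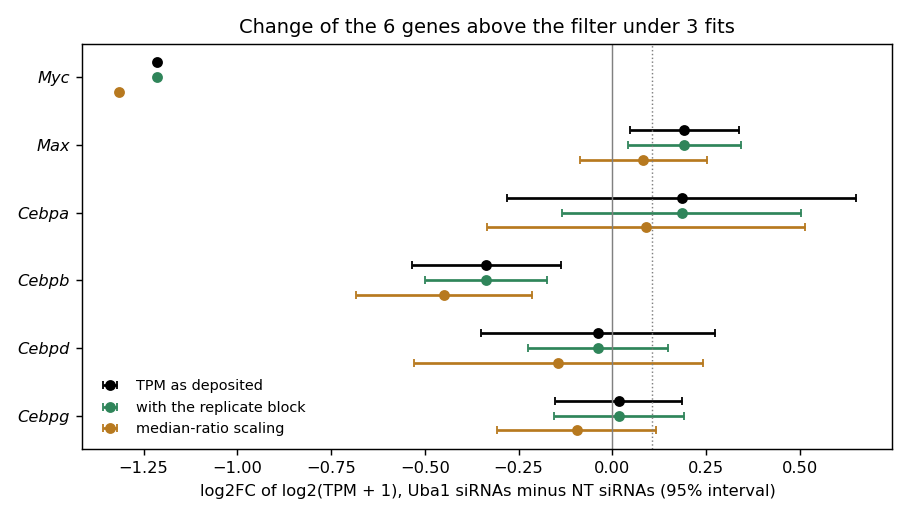
log2FC of log2(TPM + 1), *Uba1* minus NT siRNAs (x axis), of the 6 members above the filter under 3 fits: TPM as deposited (black), with the replicate block (green) and with median-ratio scaling (ochre). Bars are 95% intervals from limma (n = 4 muscles per group), left out for *Myc*, which was chosen by this contrast, and the dotted line is the median of all genes, 0.11. The intervals of *Cebpb* lie below 0 in all 3 fits, whereas that of *Max* spans 0 after median-ratio scaling.

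*Cebpb*, the most abundant member, had a lower mean with *Uba1* siRNAs, but its difference did not pass over all genes, with or without the block, on TPM as deposited. The gene is a single exon on chromosome 2 of GRCm39 from 167530835 to 167532338 on the plus strand. With NT siRNAs it was at 20.1, 22.6, 21.4 and 26.3 TPM, and with *Uba1* siRNAs at 17.7, 17.2, 16.6 and 19.0 TPM. Every knockdown muscle was below every control muscle, and the knockdown leg held 88.0%, 76.1%, 77.4% and 72.5% of the level of the control leg in mice 1 to 4. The mean went from 22.6 ± 2.66 to 17.6 ± 1.04 TPM (SD, n = 4 each), 1.28-fold. The log2FC was -0.34 (standard error 0.0878, 95% interval -0.534 to -0.138; limma, adjusted p = 0.157). Adding the mouse as a replicate block gave an adjusted p of 0.0795 (limma). Relative to the typical gene, after median-ratio scaling, the log2FC was -0.45 (adjusted p = 0.165), and with that scaling and the block together limma gave an adjusted p of 0.0280. Adjusted p-values for *Cebpb* ranged from 0.0280 to 0.351 over all alternatives tried. The exact permutation test of this 1 gene gave p = 0.0286, the smallest possible, which only restates that its groups did not overlap. Of all genes tested, 1.01% were lower and 10.6% higher without overlap, or 4.05% and 2.88% after median-ratio scaling.

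The levels of *Cebpb* rest on 476 to 573 reads in control muscles and 361 to 435 in knockdown muscles. *Peds1*, a lipid desaturase gene on the other strand, shares 312 exonic bases with *Cebpb*, and reads there cannot be told apart by strand. *Peds1* was at 12.4 to 13.5 TPM with NT siRNAs and at 10.8 to 13.9 TPM with *Uba1* siRNAs, and its groups overlapped.

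The promoter of *Cebpb* is shown because the gene is known to answer to cAMP and cytokine signals, and this window holds letters of a cAMP response element. The sequence is from RefSeq, build GRCm38.p6, chr2:167688665-167688964 on the plus strand, from position -250 to 50 relative to the start. Capitals mark the CRE core TGACG, which on the other strand reads CGTCA, and the TATA box TATAAA.
Cebpb promoter: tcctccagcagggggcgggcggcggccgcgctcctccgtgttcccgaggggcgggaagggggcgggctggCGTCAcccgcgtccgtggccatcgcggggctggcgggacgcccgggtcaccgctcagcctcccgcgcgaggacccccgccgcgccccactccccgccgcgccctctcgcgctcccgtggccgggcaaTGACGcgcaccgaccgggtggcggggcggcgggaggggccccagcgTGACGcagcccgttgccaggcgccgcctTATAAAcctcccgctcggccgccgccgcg
The CRE cores begin 180, 53 and 7 bases before the start, and the TATA box lies 21 bases after the annotated start. Of all promoters of this length, 20.8% held TGACG on either strand and 13.6% held TATAAA. No other member with a promoter in the table held TGACG, while *Mycl* and *Cebpa* also held TATAAA. The C/EBP site TTGCNNAA (10.8% of all promoters) and the STAT site TTCNNNGAA (8.30%) were in none of the 6 windows. The GC box GGGCGG was in those of *Mycn*, *Mycl*, *Cebpb* and *Cebpg* (35.7% of all promoters). The search covered both strands, and absence of the letters in this window says nothing of sites elsewhere. *Myc* and *Cebpd* are the members without an entry.

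*Cebpd*, which acts with *Cebpb* in the acute-phase response, did not differ beyond its spread. The gene is a single exon on chromosome 16 of GRCm39 from 15705150 to 15708895 on the plus strand. It was at 8.46, 11.4, 8.17 and 8.35 TPM with NT siRNAs and at 7.72, 10.7, 7.21 and 9.75 TPM with *Uba1* siRNAs. The groups overlapped, and both legs of mouse 2 were the highest of their group. The log2FC was -0.04 (standard error 0.139, 95% interval -0.351 to 0.274; limma, adjusted p = 0.889). The DNA repair gene *Spidr* shares 563 exonic bases with *Cebpd* on the other strand and was at 0.456 to 0.716 TPM.

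*Cebpg*, whose product mainly forms heterodimers with other bZIP factors, lies on chromosome 7 of GRCm39 from 34745847 to 34756011 on the minus strand. It was at 17.0, 16.6, 17.1 and 18.1 TPM with NT siRNAs and at 15.2, 18.4, 18.6 and 17.5 TPM with *Uba1* siRNAs. As deposited it had the smallest difference of the C/EBP genes, a log2FC of 0.02, against -0.10 with median-ratio scaling (95% interval -0.152 to 0.187 as deposited; limma, adjusted p = 0.910). With 1262 to 1621 reads per muscle it was also the most deeply read member.

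*Cebpa*, a late adipogenic and myeloid factor, is a single exon on chromosome 7 of GRCm39, like *Cebpg*, from 34818718 to 34821353 on the plus strand. It was at 2.81, 3.58, 4.89 and 2.09 TPM with NT siRNAs and at 4.11, 2.79, 5.08 and 3.49 TPM with *Uba1* siRNAs. The groups overlapped widely and 3 of 4 mice had the higher level in the knockdown leg. The log2FC of 0.18 had a 95% interval of -0.280 to 0.649 (limma, adjusted p = 0.631), and was 0.090 after median-ratio scaling. It was 0.034 and 0.34 without the control muscles of mice 4 and 3, and 0.070 and 0.30 without the knockdown muscles of mice 3 and 2. As for *Mycl*, both legs of mouse 3 were the highest of their group, with the macrophage and progenitor marker sums given above, and the part of those cells was not tested. Fat cells also express *Cebpa*, and adipocyte markers summed to 34.0 to 76.9 TPM with NT siRNAs and to 56.9, 7.79, 59.2 and 11.2 TPM with *Uba1* siRNAs. The 2 muscles with the fewest adipocyte transcripts, those of mice 2 and 4, had the lower *Cebpa* levels of the knockdown group, and this link was not tested either.

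Within each muscle the 4 C/EBP genes were also set against each other, since a ratio is little affected by scaling. *Cebpb* made up 41.5%, 41.7%, 41.6% and 47.9% of their summed TPM with NT siRNAs and 39.5%, 35.0%, 34.9% and 38.2% with *Uba1* siRNAs. Its share was lower in every knockdown muscle than in every control muscle. The sum itself was 52.2 ± 2.92 TPM against 47.8 ± 2.27 TPM (SD, n = 4 each). *Cebpb* per *Cebpg* was 1.18 to 1.45 in control muscles and 0.890 to 1.16 in knockdown muscles, and the log2 difference between them was lower by 0.35 with *Uba1* siRNAs in 4 of 4 mice.

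For that pair of genes the exact permutation test (two-sided) gave p = 0.0286, which became 0.171 after adjustment over the 6 pairs of C/EBP genes compared. *Cebpb* against *Cebpd* had a log2 difference of -0.30, negative in 4 of 4 mice (exact permutation p = 0.114, adjusted 0.286). *Cebpa* against *Cebpb* had one of 0.52, positive in 4 of 4 mice (exact permutation p = 0.143, adjusted 0.286). Without the control muscle of mouse 4 these differences were -0.19 and 0.30. The other 3 pairs, which leave out *Cebpb*, had exact p-values of 0.514 to 0.771. No pair passed the adjustment, and with 4 muscles a group and 6 pairs a single pair could not pass alone.

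**Figure D3:**
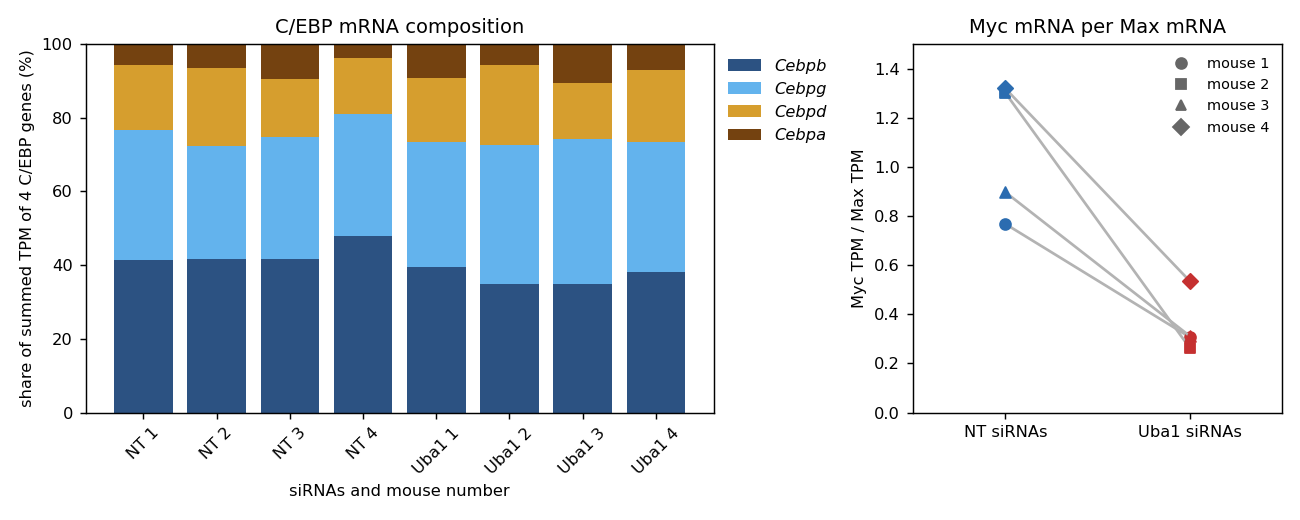
Left, share in percent (y axis) of each C/EBP gene in their summed TPM in each muscle. Right, TPM of *Myc* divided by TPM of *Max* (y axis) in muscles with NT (blue) and *Uba1* siRNAs (red), with lines joining the legs of a mouse. The *Cebpb* share is 41.5% to 47.9% in control and 34.9% to 39.5% in knockdown muscles, and *Myc* per *Max* is 0.534 or less in every knockdown muscle.

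Other bZIP genes that bind C/EBP factors or the same DNA sites were also measured: of 8, 6 were tested, 5 were higher and 1 was lower (median log2FC 0.05). After median-ratio scaling 2 were higher and 4 lower (median -0.064), and the median was also negative, -0.060, without the knockdown muscle of mouse 4. *Nfil3*, a repressor under circadian and cytokine control, was at 35.8, 43.5, 41.1 and 42.6 TPM with NT siRNAs and at 22.9, 17.6, 31.1 and 27.1 TPM with *Uba1* siRNAs. All knockdown muscles were below all controls. The log2FC was -0.73 (standard error 0.154) and met the 50% criterion, while the adjusted p was 0.129, or 0.0679 with the replicate block (limma). *Atf4*, the effector of the integrated stress response and a partner of C/EBP proteins, was at 101 to 134 TPM and 102 to 129 TPM in the 2 groups (log2FC 0.03), and *Atf5* had a log2FC of 0.07. *Cebpe*, a granulocyte gene, was at 0.109 TPM or less, and *Ddit3* was not analysed here.

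The clock output genes *Dbp*, *Tef* and *Hlf*, which bind the same sites as Nfil3, were highest in both legs of mouse 4. In mouse 4 *Dbp* was at 49.8 and 59.7 TPM against 14.8 to 29.5 TPM in the other mice, and *Hlf* at 5.96 and 6.07 TPM against 1.46 to 3.13 TPM. *Tef* was at 85.2 and 89.2 TPM in mouse 4 and at 54.0 to 68.4 TPM elsewhere. Their log2FC were 0.44 (*Dbp*), 0.04 (*Tef*) and 0.14 (*Hlf*), with adjusted p of 0.531 or more in limma. With the replicate block limma gave adjusted p of 0.0764, 0.705 and 0.453 in that order. *Dbp* was higher in the knockdown leg of 4 of 4 mice.

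Genes that Myc is known to activate were next counted: 50 genes of ribosome assembly, nucleotide synthesis, translation and metabolism, all of which passed the filter. None of the 50 met P under 0.05 with a log2FC beyond 0.58 in either direction, which is near the background of 0.833% lower and 0.442% higher. Their log2FC ranged from -0.19 to 0.24 with a median of 0.07, 35 higher and 15 lower, against a median of 0.11 over all genes. The median was 0.12 without the knockdown muscle of mouse 2. With median-ratio scaling it was -0.04 and 16 were higher, so the direction follows the scaling. The most abundant were *Ldha*, lactate dehydrogenase A, at 1542 to 1683 TPM with NT siRNAs and 1248 to 1741 TPM with *Uba1* siRNAs (log2FC -0.12), and *Eif5a*, a translation factor, at 235 to 262 and 219 to 290 TPM (log2FC -0.01). Of the 42 targets with a promoter in the RefSeq table, 16 held CACGTG, with a median log2FC of 0.10, and 26 did not, with a median of 0.07.

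Of 6 genes that Myc is known to repress, 2 were lower and 4 higher, with a median log2FC of 0.04. The tally turned to 4 lower and 2 higher after median-ratio scaling (median -0.073), and the median was -0.056 without the control muscle of mouse 4 and -0.0097 without the knockdown muscle of mouse 3. *Cdkn1a*, which encodes the cell cycle inhibitor p21, was at 24.2, 28.8, 30.3 and 17.9 TPM with NT siRNAs and at 23.6, 14.6, 18.3 and 10.5 TPM with *Uba1* siRNAs. It met the 50% criterion and was lower in 4 of 4 mice, with overlapping groups (log2FC -0.60, standard error 0.236, adjusted p = 0.241, limma). *Gadd45a*, a stress and growth arrest gene, had a log2FC of -0.33 (adjusted p = 0.360). Genes for the turnover of Myc protein, such as the ubiquitin ligases *Fbxw7*, *Skp2* and *Huwe1*, were also counted. Of 16 genes, 15 were tested and none met the criterion, again near that background, with log2FC from -0.08 to 0.23 and a median of 0.06. As deposited 13 were higher and 2 lower, against 2 higher and 13 lower after median-ratio scaling (median -0.042). The most abundant were the ligase *Stub1* (log2FC 0.08) and the kinase *Gsk3a* (0.08). Proliferation genes were near the floor: of 7, only *Pcna* passed the filter (log2FC -0.19), and *Mki67* was at 0.222 to 1.26 TPM. The log2FC of *Pcna* was -0.30 after median-ratio scaling and -0.11 without the knockdown muscle of mouse 2.

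Known targets of C/EBP factors in inflammation lay in both directions. Of 21 genes, 11 passed the filter, with 8 lower and 3 higher and a median log2FC of -0.37 against 0.11 over all genes, while all 21 without the filter had a median of -0.074. The 50% criterion, met by 0.833% of all genes in the lower and 0.442% in the higher direction, was met by 4 lower genes, *Il6*, *Socs3*, *Ptgs2* and *Tnf*, and by 1 higher gene, *Mmp13*. The list was written with earlier results of these data known, so its counts are no independent evidence. *Il6*, a cytokine that signals through STAT3, was at 2.06, 5.72, 5.20 and 3.94 TPM with NT siRNAs and at 0.837, 0.764, 0.0854 and 1.36 TPM with *Uba1* siRNAs. The groups did not overlap, the log2FC was -1.56 (standard error 0.286) and the adjusted p was 0.0909 (limma). The lowest muscle rests on 3 reads.

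*Socs3*, a feedback inhibitor of IL-6 signalling and a STAT3 target, was at 18.5, 37.9, 22.0 and 34.1 TPM with NT siRNAs and at 10.9, 11.4, 10.1 and 20.1 TPM with *Uba1* siRNAs. It was lower in 4 of 4 mice, with the knockdown muscle of mouse 4 above the lowest control (log2FC -1.03, standard error 0.263; limma, adjusted p = 0.150, and 0.0478 with the replicate block). *Ptgs2*, the inducible cyclooxygenase, went from 2.16 to 7.47 TPM to 0.603 to 2.64 TPM (log2FC -1.03, adjusted p = 0.184), and *Tnf* had a log2FC of -0.65 (adjusted p = 0.238). *Mmp13*, a collagenase, was at 8.52, 1.40, 5.85 and 4.12 TPM with NT siRNAs and at 9.13, 59.9, 19.5 and 58.1 TPM with *Uba1* siRNAs. Its knockdown levels were all above the controls, in mouse 1 only narrowly (log2FC 2.47, standard error 0.614, adjusted p = 0.147, limma). *Fbxo32*, the muscle ubiquitin ligase atrogin-1 and a reported C/EBPβ target, was at 84.8 to 99.1 TPM and 92.1 to 150 TPM, higher in 4 of 4 mice (log2FC 0.35, adjusted p = 0.236), and *C3* had a log2FC of -0.23.

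Leukocytes also express several of these genes. Of 10 neutrophil markers 5 were tested, all 5 with positive log2FC (median 0.46, and 0.76 without the control muscle of mouse 2), summing to 17.5 to 55.8 TPM in control and 29.8 to 67.5 TPM in knockdown muscles, and *Camp* was at 0 in every muscle. *S100a8* had the largest log2FC of them, 0.63 (adjusted p = 0.334). Of 10 macrophage markers 9 were tested. Their median log2FC was 0.06 but took either sign with single muscles left out, from -0.23 without the knockdown muscle of mouse 3 to 0.30 without the control muscle of the same mouse, and *Lyz2* and *C1qb* had log2FC of 0.000598 and -0.02. None of either list met the criterion. Their part in the levels of *Il6*, *Socs3* and *Mmp13* was not tested.

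Adipogenic C/EBP targets were spread around 0: 15 of 16 were tested, with 7 higher, 8 lower and a median log2FC of -0.08, which was 0.020 without the control muscle of mouse 2 and 0.046 without the knockdown muscle of mouse 4. *Agpat2*, an acyltransferase of lipid synthesis named here after its values were seen, was at 2.68 to 3.39 TPM with NT siRNAs and at 4.45 to 4.89 TPM with *Uba1* siRNAs. Its log2FC of 0.49 (standard error 0.0754) had an adjusted p of 0.0606, or 0.0478 with mice as blocks (limma), a threshold that 0.494% of all genes passed in the blocked fit. *Cidec*, a lipid droplet protein of fat cells, met the criterion, from 2.34 to 4.24 TPM to 2.56, 0.482, 2.94 and 0.638 TPM (log2FC -0.83, standard error 0.325, adjusted p = 0.238, limma). Its 2 low values were in the muscles of mice 2 and 4, in which *Adipoq* (0.741 and 1.52 TPM) and *Cfd* (6.10 and 8.21 TPM) were low as well. *Slc2a4*, the glucose transporter of myofibers and fat cells, and the fatty acid transporter *Cd36* are also muscle genes and had log2FC of 0.14 and 0.19. All 5 adipocyte markers tested were lower (median log2FC -0.83, or -0.53 without the knockdown muscle of mouse 2), and 1 of them, *Cidec*, met the criterion. Without the filter on low values the median of this list was -0.40.

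Upstream, 12 of 16 genes for cytokines that induce *Cebpb*, *Cebpd* and *Myc*, their receptors and the JAK-STAT3 pathway were tested. Besides *Il6* and *Tnf*, none met the criterion (0.833% of all genes lower, 0.442% higher). The median log2FC was 0.15 against 0.11 over all genes, 0.034 after median-ratio scaling and 0.080 without the knockdown muscle of mouse 3. The shared receptor subunit *Il6st* was at 32.2 to 34.0 TPM and 34.0 to 38.7 TPM (log2FC 0.14), and the kinase *Jak1* had a log2FC of 0.16.

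Early response genes, like *Myc* and *Cebpb*, are induced within the first hours of a stimulus. Of 20 genes 19 were tested, 18 had a negative log2FC and 8 met the criterion, all in the lower direction, with a median log2FC of -0.56, while none passed the adjusted p without the block. Of all genes, 0.833% met the criterion in the lower and 0.442% in the higher direction. This list too was written with earlier results known. *Atf3*, a stress-induced bZIP repressor, was at 76.9, 158, 99.8 and 129 TPM with NT siRNAs and at 14.5, 23.4, 17.7 and 45.8 TPM with *Uba1* siRNAs (log2FC -2.23, standard error 0.337; limma, adjusted p = 0.0575, or 0.00663 once mice were blocked). The nuclear receptors *Nr4a1* and *Nr4a2* had log2FC of -0.67 and -1.28, the zinc finger genes *Egr2* and *Klf2* -0.82 and -0.68, each without overlap between groups. *Fos*, by contrast, was at 216 to 484 TPM and 136 to 381 TPM with widely overlapping groups (log2FC -0.43, adjusted p = 0.481).

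**Figure D4:**
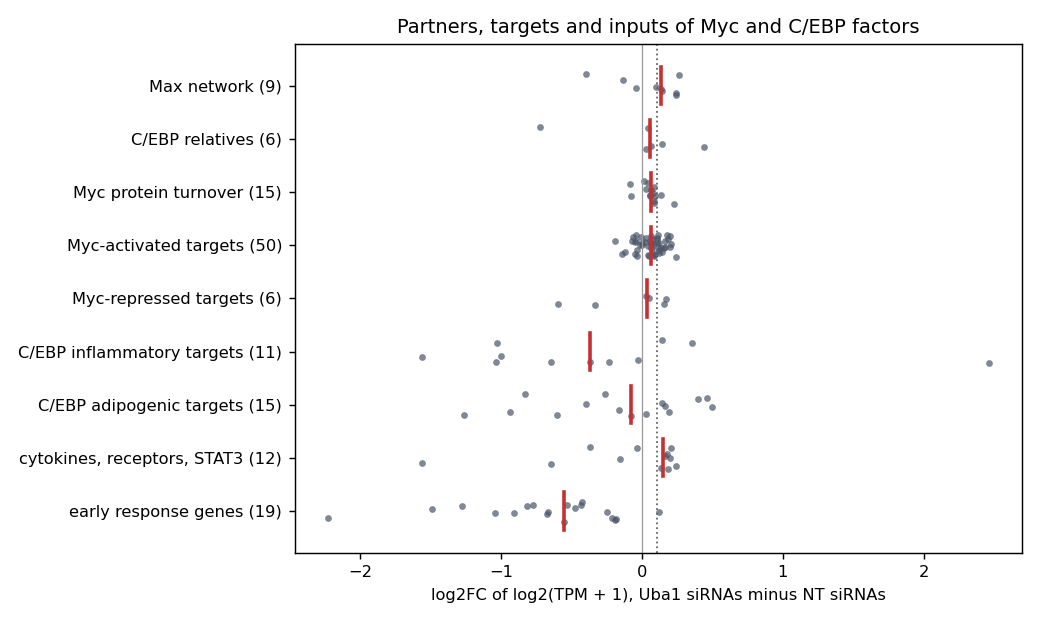
log2FC of log2(TPM + 1), *Uba1* minus NT siRNAs (x axis), of every tested gene (points) in 9 lists, with the number tested in brackets, the list median in red and the median of all genes as a dotted line. The 50 Myc-activated targets lie between -0.19 and 0.24, whereas 18 of 19 early response genes are below 0 and C/EBP inflammatory targets spread from -1.56 to 2.47.

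The genes whose levels were most like those of *Myc* were sought among all genes tested by Pearson's r of log2(TPM + 1), given as a description. Over the 8 muscles, which share the contrast by which *Myc* was chosen, they were *Otud1* (r = 0.99), *Adamts1* (0.99), *Midn* (0.98), *Gprc5a* (0.98) and *Atf3* (0.98). *Otud1*, a deubiquitinase, was at 75.2 to 130 TPM in control and 19.6 to 54.2 TPM in knockdown muscles, and *Adamts1*, a secreted metalloprotease, at 36.4 to 59.4 and 20.1 to 34.3 TPM. With the group means removed, so that only deviations within groups count, the closest were *Spty2d1* (r = 0.99), *Lars* (0.97), *Adamts1* (0.96), *Otud1* (0.96) and *Socs3* (0.95). Among the other members this r with *Myc* was 0.73 for *Cebpb*, 0.38 for *Cebpd*, 0.13 for *Cebpg*, -0.11 for *Cebpa* and -0.19 for *Max*, and for *Mnt* it was 0.90. Each r rests on 8 muscles, and legs of a mouse share that mouse. The closest genes named here and below are the highest among 11530, and a search of that size gives high r by itself. How much of each r is owed to the search was not tested.

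For *Cebpb* the genes most alike over the 8 muscles were *Noct*, *Ifrd1*, *Adamts1*, *Midn* and *Pxdc1* (r = 0.94 to 0.98), of which *Adamts1* and *Midn* also stand in the list for *Myc*. *Ifrd1*, a coregulator in muscle differentiation, was at 20.1 to 30.2 TPM in control and 16.0 to 21.4 TPM in knockdown muscles. For *Cebpd* the closest genes were *Erg*, *Zfp46*, *Jun*, *Txnip* and *Det1* over all muscles (r = 0.86 to 0.92) and *Llgl2*, *Selenoo*, *Ppp1r15a*, *Adssl1* and *Ptger4* within groups (r = 0.93 to 0.99). *Jun*, an early response gene, was at 126 to 200.1 TPM with NT siRNAs and at 104 to 162 TPM with *Uba1* siRNAs, highest in its group in mouse 2 for controls and in mouse 4 for knockdown muscles.

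**Figure D5:**
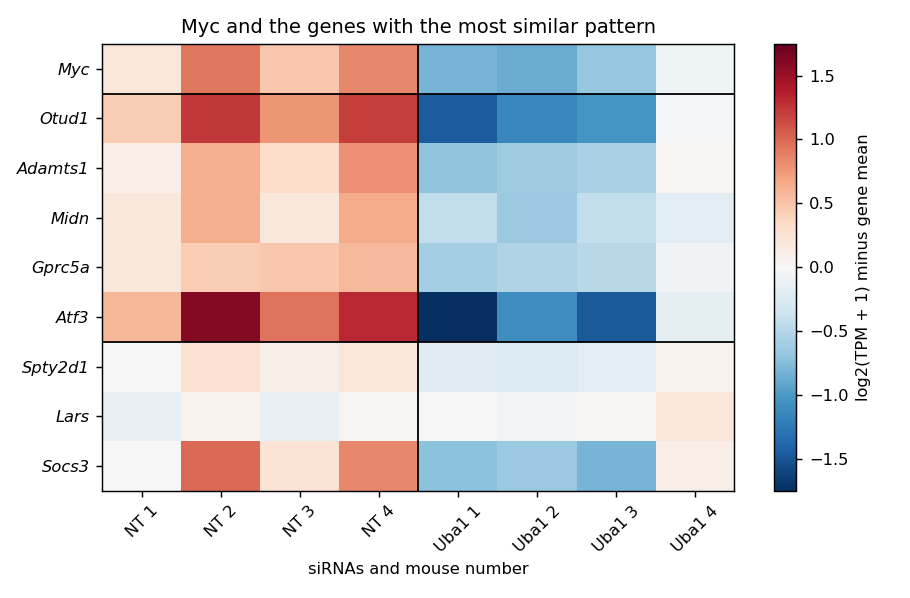
log2(TPM + 1) minus the mean of each gene over 8 muscles (color) of *Myc* (top row), the 5 genes with the highest r over all muscles (middle) and the genes added by the highest r within groups (bottom). Columns are muscles by siRNA and mouse. *Myc* and the 5 middle genes are highest in the control muscles of mice 2 and 4, except *Gprc5a*, and within the knockdown group in mouse 4.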

How the data were processed

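Libraries for sequencing were made from total RNA of 8 TA muscles with the TruSeq RNA Sample Prep v2 Kit, which does not mark strand. Reads were trimmed and mapped by the authors with CLC Genomics Workbench to the GRCm39 genome, and TPM values per gene symbol were deposited. The annotation and the handling of reads that match several genes are not given in the sources used here. Same-numbered muscles are the legs of 1 mouse by the labels and the paper, and their deviations from the group means correlated at -0.00037, 0.20, 0.58 and 0.54 in mice 1 to 4.

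The members and gene lists were chosen with earlier results of these data known. Genes that reached 1 TPM in 4 or more muscles were fitted with limma (version 3.58.1, R 4.3.3; lmFit, eBayes with trend) on log2(TPM + 1), without covariates, and adjusted by Benjamini-Hochberg over all 11530. The methods of the study name a Kruskal-Wallis test on log-transformed TPM, which was an alternative here. The fit was tested on simulated data. For single genes, exact permutation tests (two-sided) were used. Named were the members, all genes of the Max network and C/EBP relatives, of each other list up to 5 genes that met the criterion and its 2 most abundant, and the 5 genes most like *Myc*, *Cebpb* and *Cebpd*. The genes most like *Cebpb* within groups are not reported here. Positions come from GENCODE M39 (GRCm39) and promoters from RefSeq (GRCm38.p6), where 6 of 8 members matched. Reads were estimated per member at the shortest length that made them whole in all 8 muscles (within 0.06) and served only to describe depth. At annotated exon lengths, 53.7% to 55.6% of the low values per muscle were within 0.1 of whole reads. What 1 read is worth differed by at most 1.09-fold between muscles. Counting errors cover counting only.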

Additional observations from a re-analysis of the deposited data

Results flagged for a closer look

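In groups of 4 muscles, a muscle that lay far from the other 3 was looked for in 130 groups of named genes. There were 8 such cases, while chance gives about 1 in 20, or 6.5 of 130. Among the members, *Mycl* was at 0.645 TPM in the control muscle of mouse 3 against 0.240 to 0.298 TPM in the other controls. *Cebpd* was at 11.4 TPM in the control muscle of mouse 2 against 8.17 to 8.46 TPM. In the knockdown muscle of mouse 4, *Dbp* was at 59.7 TPM against 23.5 to 29.5 TPM, and *Socs3* at 20.1 TPM against 10.1 to 11.4 TPM. *Hlf* was at 5.96 TPM in the control muscle of mouse 4 against 1.61 to 2.08 TPM. In control muscles *Slc2a4* was at 242 TPM in mouse 3 against 291 to 300.5 TPM, *Egr2* at 15.0 TPM in mouse 2 against 7.20 to 7.66 TPM, and *Mki67* at 1.26 TPM in mouse 3 against 0.643 to 0.685 TPM.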

How the results depend on the processing

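Of 508 alternative values, 456 were counted as the same, but that count includes list medians that turned sign or moved far. Without the knockdown muscle of mouse 3, the macrophage median went from 0.06 to -0.23. Without that of mouse 2, the satellite cell and myoblast median went from -0.46 to -0.0049. *Myc* kept its direction in every alternative, with log2FC from -1.39 to -1.11 when muscles were left out and -1.39 with a pseudocount of 0.1. It was chosen by its fall, so this is no support for it. Where groups do not overlap, as for *Myc* and *Cebpb*, leaving out a muscle cannot turn the direction. *Cebpb* passed in the fit with the replicate block and median-ratio scaling together (-0.45, adjusted p = 0.0280, limma) and in no other, and stayed negative throughout (-0.39 to -0.26 with muscles left out). The block changed no call of *Max*, *Cebpa*, *Cebpd* or *Cebpg*. *Cebpa* could not be tested among genes averaging at least 5 TPM. *Cebpg* turned to -0.10 with median-ratio scaling, with and without the block, and to -0.071 with quantile normalization, and ranged from -0.014 to 0.078 with muscles left out. *Cebpd* ranged from -0.13 to 0.063 with muscles left out, positive without the control muscle of mouse 2 or the knockdown muscle of mouse 1 or 3. *Mycn* gave 0.094 with median-ratio scaling (exact permutation p = 0.0571) and 0.12 with the replicate block (exact p = 0.125, the smallest possible). *Mycl* gave -0.0047 with a pseudocount of 0.1, -0.031 with median-ratio scaling and -0.10 to 0.10 with muscles left out. With muscles left out, the *Cebpa* to *Cebpg* difference ranged from -0.0063 to 0.33 and that of *Cebpd* to *Cebpg* from -0.12 to 0.061. The causes of these turns were not tested.

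The genes past the adjusted p numbered 3 as reported, 23 with median-ratio scaling, 11 for genes averaging at least 5 TPM, 13 without mitochondrial genes, 28 with quantile normalization, 57 with the replicate block, 69 with the block and scaling, and 0 by Kruskal-Wallis (2210 at an unadjusted p under 0.05, against 2072 by limma). They numbered 2 to 39 with muscles left out: 6 without the control of mouse 1, 5 without that of mouse 3, and 5 and 39 without the knockdown muscles of mice 2 and 4. Genes higher by the 50% criterion numbered 51, but 151 with a pseudocount of 0.1, 30 with median-ratio scaling, 20 for genes averaging at least 5 TPM, 28 with quantile normalization, 87 without mitochondrial genes, and 51 to 82 with muscles left out (82 without the control of mouse 1). Genes lower numbered 96, and 154 with the block and scaling.

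Median-ratio scaling, with and without the block, moved the list medians to 0.023 (Max network), -0.042 (Myc protein turnover), -0.038 (Myc-activated targets) and 0.034 (cytokines and receptors), and quantile normalization the first 3 to 0.018, -0.045 and -0.032. Without a filter the medians were -0.074 for C/EBP inflammatory targets, 0.040 for cytokines and receptors and -0.044 for proliferation genes. Quantile normalization also turned the medians of C/EBP relatives (-0.013), Myc-repressed targets (-0.062) and macrophage markers (-0.014), and adipogenic C/EBP targets averaging at least 5 TPM had a median of 0.14. Depth limits *Mycn* and *Mycl*, which rest on few reads.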

Other observations

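The knockdown was uneven between mice. By the share of the control-leg level, the order of the mice for *Uba1* was also their order for *Myc*. The knockdown leg held 29.8%, 11.5%, 24.8% and 39.1% of the *Uba1* mRNA of the control leg in mice 1 to 4, against 42.6%, 23.8%, 40.0% and 49.5% of its *Myc* mRNA. For *Cebpb* the order differed, with 88.0% in mouse 1 and 72.5% in mouse 4. By TPM in the knockdown legs, mice 1 and 3 stood in opposite order for *Uba1* (18.1 and 15.8 TPM) and *Myc* (3.39 and 3.87 TPM). These are 4 mice, *Myc* was chosen by its fall, the order was noticed after the values were seen, and it carries no test.

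Markers of other resident cells gave the following differences between groups. Fibro-adipogenic progenitor genes had positive log2FC in 8 of 8 cases (median 0.21 against 0.11 over all genes), and in 6 of 8 with a median of 0.093 after median-ratio scaling. The median was 0.035 without the knockdown muscle of mouse 3 and 0.39 without that of mouse 2, and lay between these without any other muscle. *Col1a1* had a log2FC of 0.57 (adjusted p = 0.340, limma) and *Col3a1* of 0.26. Satellite cell and myoblast genes had a median log2FC of -0.46, with 6 of 8 lower and none past the criterion. That median rested on single muscles: it was -0.0049 without the knockdown muscle of mouse 2, -0.30 without that of mouse 4 and -0.22 without the control of mouse 3, against -0.76 and -0.75 without the knockdown muscles of mice 1 and 3. *Myod1* was higher in 4 of 4 mice (log2FC 0.34, adjusted p = 0.319) and *Myog* had a log2FC of -0.39. Endothelial genes, such as *Pecam1* and *Cdh5*, had a median of -0.01, from -0.070 to 0.023 with single muscles left out. Of 7, 4 were lower as deposited, and 6 after median-ratio scaling, with a median of -0.13. Fast muscle genes had a median of -0.09, with 9 of 10 lower, or -0.014 without the knockdown muscle of mouse 2. That median was -0.20 after median-ratio scaling and -0.0036 with quantile normalization. *Acta1* had a log2FC of -0.17 (adjusted p = 0.508, limma).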
